A study of Homo sapiens with 18 samples.

Results

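Short noncoding RNAs of ribonucleoprotein particles were followed between polysomes and total RNA in human HEK293T cells. The members, chosen by gene name, were the Y RNAs RNY1, RNY3, RNY4 and RNY5, the catalytic RNAs RMRP and RPPH1, the telomerase RNA TERC and the BC200 RNA gene BCYRN1. Of these 8 names, 7 had a row among the 60675 human gene rows of the count table, and all 7 passed the filter on low counts that left 26804 genes for testing. RNY5 had no row under its name and is described from an unnamed row that spans its RefSeq position.

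HEK293T is a human embryonic kidney line carrying the SV40 large T antigen. The cells expressed 1 of 3 fusions, YTHDF1-ADAR, YTHDF2-ADAR or YTHDF3-ADAR, in which a reader of m6A-modified mRNA is joined to an adenosine deaminase that edits the transcripts it meets. All 6 groups had received 1 µg/mL doxycycline for 24 h to induce the fusion and 100 µg/mL cycloheximide for 10 min, which holds ribosomes on mRNA, and no group without a fusion was part of the comparison. For each fusion, RNA from pooled sucrose gradient fractions with more than 2 ribosomes (polysome RNA) and total RNA were sequenced in 3 libraries each, 18 in all. The labels do not say whether a line is a single clone or whether the replicates are separate cultures, so p-values measure the spread between these libraries, which may be technical. Each library was made from 150 ng of RNA after depletion of ribosomal RNA, and the polysome pool and total RNA were thus compared at equal input rather than per cell.

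These RNAs are not translated. Y RNAs are small stem-loop RNAs made by RNA polymerase III that bind the Ro60 and La proteins and take part in RNA quality control and the initiation of DNA replication. RPPH1 is the RNA of RNase P, which trims the leader of precursor tRNAs, and RMRP is the RNA of RNase MRP, which cleaves precursor ribosomal RNA and shares most of its proteins with RNase P. TERC carries the template that telomerase copies onto chromosome ends. BCYRN1 encodes BC200 RNA, a primate RNA first known from neurons that binds the poly(A)-binding protein and represses translation initiation.

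Counts per library ran from 42699303 to 67549159. Levels are given as CPM, counts scaled to library size with edgeR's TMM factors unless library totals are named. LIN28B, INA and PAX2, which this line expresses, were detected in every library, at 37.6 to 165, 25.6 to 102 and 2.88 to 9.13 CPM scaled by library totals. Of 5 markers of other cell types, PTPRC, CDH5, ALB and HBG1 stayed at or below 0.118 CPM on that scale and COL1A1 lay between 5.17 and 32.8 CPM. For the Y RNAs, YTHDF3-ADAR polysome replicate 3 and total RNA replicate 1 of each line stood above the rest of their groups, so Y RNA results are given with and without these libraries.

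In the files' GRCh38 coordinates, RNY4 (chromosome 7, 148963315 to 148963410, plus strand), RNY3 (148983755 to 148983856, plus strand) and RNY1 (148987136 to 148987248, minus strand) lie close together. The unnamed long noncoding row that spans RNY5 (148941483 to 148941638, plus strand) lies beside them, with RefSeq's RNY5 at 148941488 to 148941571. BCYRN1 is on chromosome 2 (47335315 to 47335514, plus strand), TERC on chromosome 3 (169764520 to 169765060, minus strand), RMRP on chromosome 9 (35657754 to 35658017, minus strand) and RPPH1 on chromosome 14 (20343075 to 20343407, minus strand). Several of these loci are listed more than once. RMRP has a second row with the same count in 16 of 18 libraries, while TERC and RPPH1 are each overlapped by another row on their strand whose count differed by at most 0.523% and 0.558%, so nearly all reads are shared and 1 row per RNA is reported. BCYRN1 lies antisense to a row named EPCAM-DT, and whether counting used strand is not stated. The counts of this pair were equal in 0 of 18 libraries and differed by up to 100%.

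Of the 7 RNAs, 6 were far lower on polysomes than in total RNA in all 3 lines, and RMRP was the exception. BCYRN1, the Y RNAs and RPPH1 were between 7.02 and 52.8 times lower and TERC between 6.14 and 7.16 times lower, whereas RMRP was between 1.24 and 1.39 times lower. With edgeR's quasi-likelihood test and Benjamini-Hochberg adjustment over all genes, the members called lower at an adjusted p under 0.05 numbered 7 for YTHDF1-ADAR, 7 for YTHDF2-ADAR and 6 for YTHDF3-ADAR. Over all genes tested, 11.9%, 9.04% and 12.1% were called lower in these lines, and the median log2 fold change of all genes was 0.03, 0.03 and -0.05. The median of all genes near 0 sets the scale on which these losses are read. Only the polysome pool and total RNA were sequenced, so where the rest of an RNA lay is not shown. A lower value also cannot tell fewer cells with an RNA on polysomes from less of it on the polysomes of each cell. The sources used here do not give how the authors counted reads that match several places, which bears most on the Y RNAs and BCYRN1, which have many related copies in the genome.

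**Figure D1:**
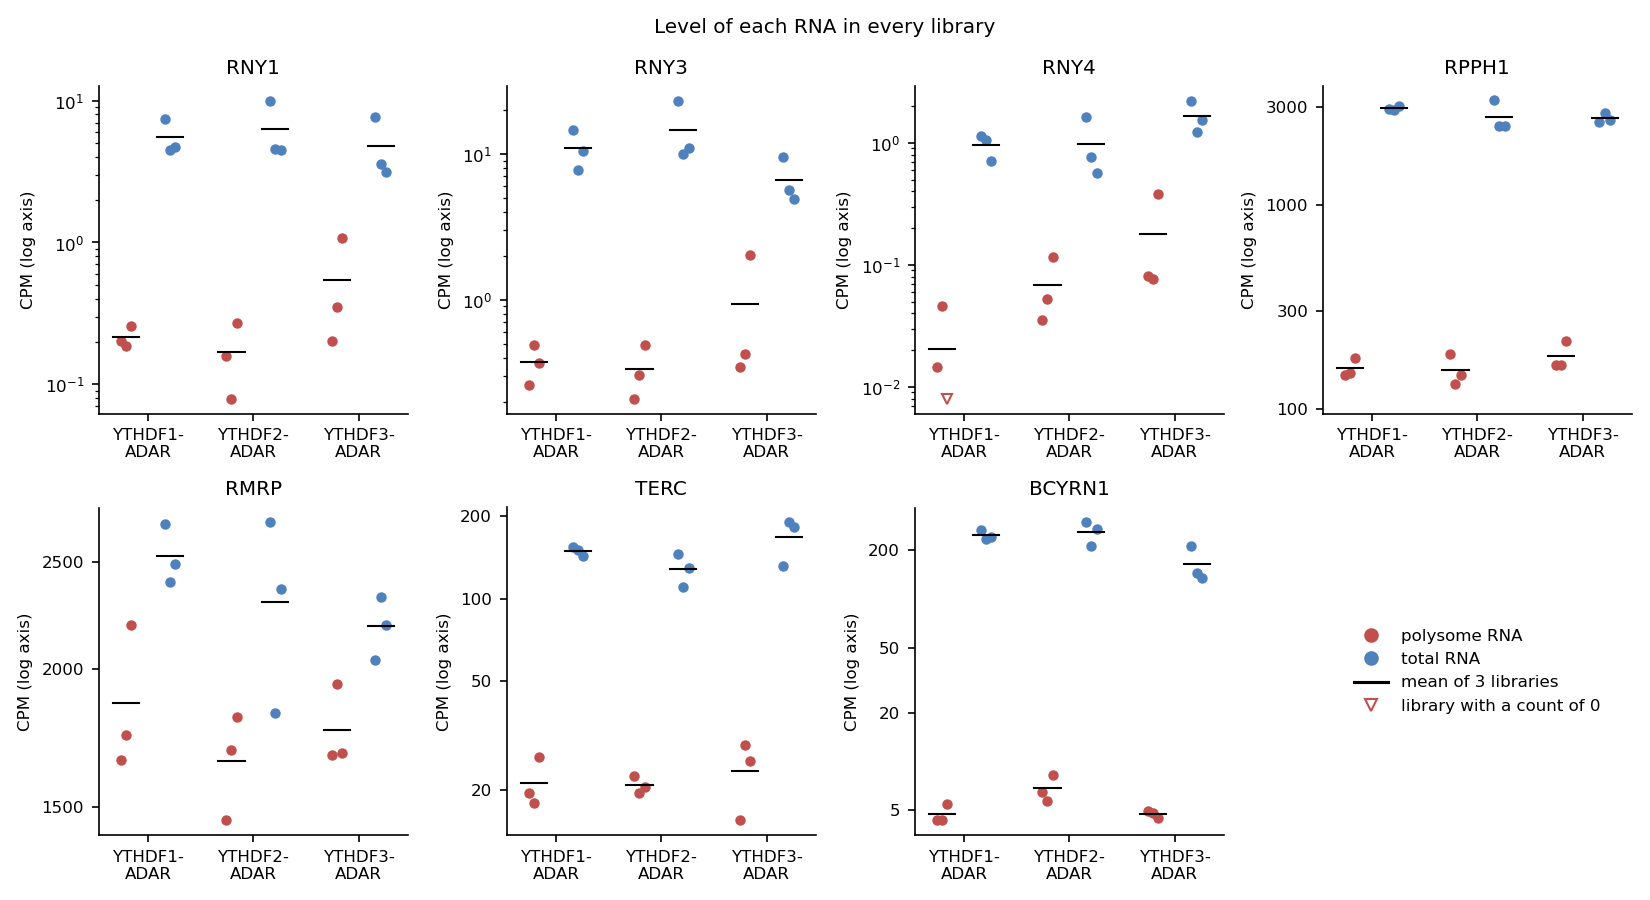
Level of each RNA in every library, in CPM (counts scaled to library size with TMM factors, log axis), with polysome RNA (red) left of total RNA (blue) in each line and black lines for means of 3 libraries. For 6 of the 7 RNAs every polysome library lies below every total RNA library, while RMRP spans 1459 to 2189 CPM on polysomes and 1825 to 2713 CPM in total RNA.

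RNY3, the most abundant of the Y RNAs here, had 0.261, 0.494 and 0.367 CPM in YTHDF1-ADAR polysome libraries, against 14.5, 7.80 and 10.5 CPM in total RNA libraries of that line. In YTHDF2-ADAR cells it had 0.210, 0.303 and 0.486 CPM on polysomes and 23.1, 9.93 and 11.01 CPM in total RNA. Every polysome library thus lay far below every total RNA library, and the log2 fold change was -4.86 (SE 0.60, edgeR adjusted p 5.91e-05) in YTHDF1-ADAR cells and -5.46 (SE 0.62, adjusted p 3.47e-05) in YTHDF2-ADAR cells. In YTHDF3-ADAR cells RNY3 had 0.345, 0.428 and 2.03 CPM on polysomes and 9.48, 5.64 and 4.89 CPM in total RNA. Replicate 3 on polysomes was several times the other libraries of its group but still below all total RNA libraries, and the log2 fold change was -2.81 (SE 0.54, adjusted p 0.00206).

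RNY1 showed the same split. It had 0.203, 0.185 and 0.257 CPM on YTHDF1-ADAR polysomes, against 7.48, 4.48 and 4.73 CPM in total RNA, and 0.158, 0.0792 and 0.272 CPM on YTHDF2-ADAR polysomes, against 9.97, 4.53 and 4.50 CPM in total RNA. No library crossed between the fractions, and replicate 1 was highest in total RNA. Its log2 fold change was -4.69 (SE 0.59) in YTHDF1-ADAR, -5.26 (SE 0.61) in YTHDF2-ADAR and -3.11 (SE 0.53) in YTHDF3-ADAR cells, with edgeR adjusted p-values of 6.77e-05, 4.48e-05 and 0.000847. In YTHDF3-ADAR cells RNY1 stood at 0.203, 0.352 and 1.08 CPM on polysomes and at 7.68, 3.60 and 3.15 CPM in total RNA, with the high libraries the same as for RNY3. The count of RNY3 over that of RNY1 was 1.90 ± 0.85 in polysome and 1.91 ± 0.41 in total RNA libraries (SD, n = 9 each). Both values pool the lines, and the spread on polysomes was wide. By line the ratio in total RNA was 1.97 ± 0.24 for YTHDF1-ADAR, 2.32 ± 0.13 for YTHDF2-ADAR and 1.45 ± 0.19 for YTHDF3-ADAR (SD, n = 3 each). On polysomes it was 1.79 ± 0.76, 2.32 ± 1.33 and 1.6 ± 0.34.

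RNY4 was the least abundant Y RNA and rests on few reads. It had 1, 3 and 0 reads in the YTHDF1-ADAR polysome libraries, against 38, 48 and 29 reads in total RNA. In YTHDF2-ADAR cells there were 2, 4 and 6 reads on polysomes and 54, 40 and 24 in total RNA, and the YTHDF3-ADAR libraries held 4, 5 and 24 reads on polysomes and 121, 57 and 80 in total RNA. No polysome library reached the lowest total RNA library of its line, with log2 fold changes of -5.36 (SE 0.76), -3.83 (SE 0.65) and -3.16 (SE 0.55) and edgeR adjusted p-values of 0.000184, 0.000994 and 0.00104. Over the alternatives and left-out libraries the first of these ran from -6.53 to -4.90 and was called in all of them.

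The row spanning RNY5 is 156 nt long and covers all 84 nt of that gene, so reads of RNY5 and of the longer transcript cannot be told apart in it. It held 108 reads in all 18 libraries together. Polysome libraries had 3, 0 and 0 reads in YTHDF1-ADAR, 1, 0 and 0 in YTHDF2-ADAR and 0, 1 and 4 in YTHDF3-ADAR cells, against 8, 15 and 6, then 13, 11 and 14, then 13, 9 and 10 in total RNA. The row was lower on polysomes in each line, with edgeR adjusted p-values of 0.00408, 0.00117 and 0.0142, and it is not counted among the 7 members.

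RNY1, RNY3 and RNY4 lay on the same side of their group means in 13 of 18 libraries. In each group 1 library had the highest summed Y RNA level. In all 6 groups that library also had the largest share of counts in gene rows of at least 100 and under 200 nt. In all 6 it had the highest summed level of rows labelled snRNA, which include RN7SK, and in 4 of 6 that of snoRNAs. It was highest for scaRNAs in 3 of 6 groups, for miRNAs and for misc_RNA rows in 2 of 6 each, and for the share of counts in rows under 100 nt in 1 of 6, and it was lowest for scaRNAs and for that last share in 2 of 6 each. On YTHDF3-ADAR polysomes the Y RNA sum was 3.49 CPM in replicate 3 and 0.630 and 0.856 CPM in the others, while the share of counts in rows of at least 100 and under 200 nt was 0.934% in replicate 3 and 0.487% and 0.607% in the others. In total RNA the highest Y RNA sum was in replicate 1 of each line, at 23.1 CPM in YTHDF1-ADAR, 34.6 CPM in YTHDF2-ADAR and 19.4 CPM in YTHDF3-ADAR cells, where the other libraries reached at most 15.9, 16.1 and 10.5 CPM. The same 3 libraries had 3.38%, 2.77% and 2.22% of counts in rows of at least 100 and under 200 nt, where the others of their groups reached at most 2.41%, 1.97% and 0.987%. The part of these shares in the Y RNA values was not tested.

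**Figure D2:**
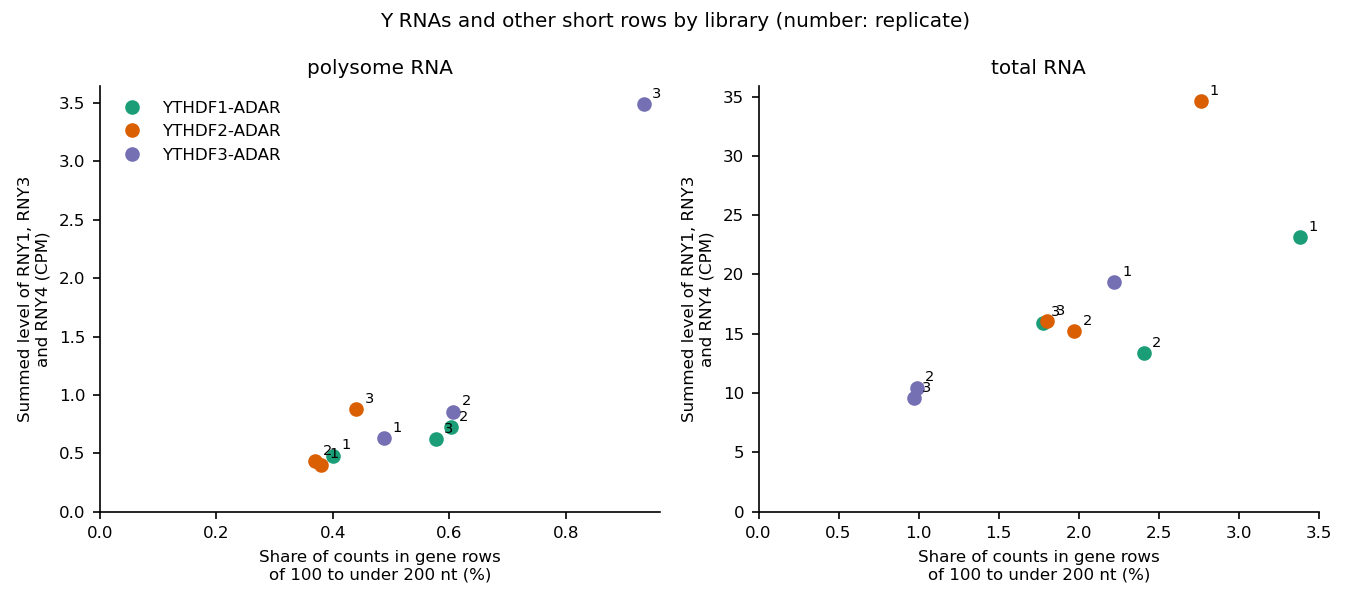
Summed level of RNY1, RNY3 and RNY4 (CPM) against the share of counts in gene rows of at least 100 and under 200 nt (%), for polysome RNA (left) and total RNA (right), with 1 point per library, coloured by line and numbered by replicate. YTHDF3-ADAR polysome replicate 3, at 3.49 CPM and 0.934%, and replicate 1 of each line in total RNA lie highest in their groups on both axes.

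Leaving out YTHDF3-ADAR polysome replicate 3 moved the log2 fold changes in that line to -4.07 for RNY1, -4.09 for RNY3 and -4.35 for RNY4, with edgeR adjusted p-values of 0.000244, 9.64e-05 and 0.000245. Without total RNA replicate 1 they were -2.52, -2.39 and -2.82, with adjusted p-values of 0.00259, 0.00763 and 0.00219. Without both they were -3.48, -3.67 and -4.01, all still called. Without total RNA replicate 1 of YTHDF1-ADAR the log2 fold changes in that line were -4.41, -4.60 and -5.23, and without that of YTHDF2-ADAR they were -4.78, -4.98 and -3.30 in the line, all called. Fitting the 6 YTHDF3-ADAR libraries by themselves, so that the spread was estimated from them only, gave RNY1, RNY3 and RNY4 edgeR adjusted p-values of 0.0814, 0.108 and 0.0709. In that fit 219 of 24906 genes (0.879%) were called lower and 0 higher, against 3245 (12.1%) lower and 2147 higher with all lines. Most calls in this line thus depend on the spread shared with the other lines. Fitted by themselves, YTHDF1-ADAR and YTHDF2-ADAR libraries instead gave more genes lower, at 17.9% and 16.9%, against 11.9% and 9.04% with all lines.

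RPPH1 and RMRP, the RNAs of sister enzymes, stood at like levels in total RNA and parted on polysomes. RPPH1 fell to 146, 150 and 179 CPM on YTHDF1-ADAR polysomes, against 2929, 2911 and 3042 CPM in total RNA. On YTHDF2-ADAR polysomes it had 187, 132 and 147 CPM, against 3243, 2414 and 2427 CPM in total RNA, and on YTHDF3-ADAR polysomes 165, 164 and 216 CPM, against 2545, 2817 and 2587 CPM. The groups were wide apart in every line, with log2 fold changes of -4.22 (SE 0.18), -4.12 (SE 0.18) and -3.87 (SE 0.17) and edgeR adjusted p-values of 1.95e-10, 2.71e-10 and 5.8e-10.

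RMRP had 1654, 1743 and 2189 CPM on YTHDF1-ADAR polysomes, against 2703, 2397 and 2485 CPM in total RNA. On YTHDF2-ADAR polysomes it had 1459, 1687 and 1809 CPM, against 2713, 1825 and 2362 CPM in total RNA, and on YTHDF3-ADAR polysomes 1670, 1935 and 1679 CPM, against 2038, 2322 and 2192 CPM. On this scale the polysome libraries lay below the total RNA libraries of their own line, though by little. The log2 fold change was -0.44 (SE 0.15, edgeR adjusted p 0.0458) in YTHDF1-ADAR and -0.48 (SE 0.15, adjusted p 0.0396) in YTHDF2-ADAR cells, and RMRP did not pass the test in YTHDF3-ADAR cells (-0.31, SE 0.15, adjusted p 0.16). The 95% interval there ran from -0.63 to 0.01 on the log2 scale.

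How the libraries were scaled decided whether RMRP was lower at all. With library totals alone its polysome and total RNA libraries overlapped in every line, at 1870 to 2384 CPM on polysomes against 1948 to 2217 CPM in total RNA in YTHDF1-ADAR cells. The log2 fold changes were then -0.01, -0.10 and -0.00 with adjusted p-values of 0.966, 0.566 and 0.99, while the median of all genes moved to 0.46, 0.40 and 0.25. Relative to that median RMRP remained lower under each scaling. Leaving out single libraries also cost the call, which held in 1 of 6 such fits in YTHDF1-ADAR cells (adjusted p 0.0284 to 0.174), 1 of 6 in YTHDF2-ADAR cells (0.0165 to 0.184) and 0 of 6 in YTHDF3-ADAR cells (0.15 to 0.362). The log2 fold changes of these fits ran from -0.57 to -0.36, from -0.62 to -0.34 and from -0.38 to -0.26. In the authors' deposited table, whose comparison is not named, RMRP has a log2 fold change of -0.45 and an adjusted p of 0.018. Its member values lie closest to the YTHDF1-ADAR contrast here. RNY4, for one, has -5.52 there, beside -5.36, -3.83 and -3.16 in the 3 lines. The deposited value is thus not taken as separate from the YTHDF1-ADAR result.

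**Figure D3:**
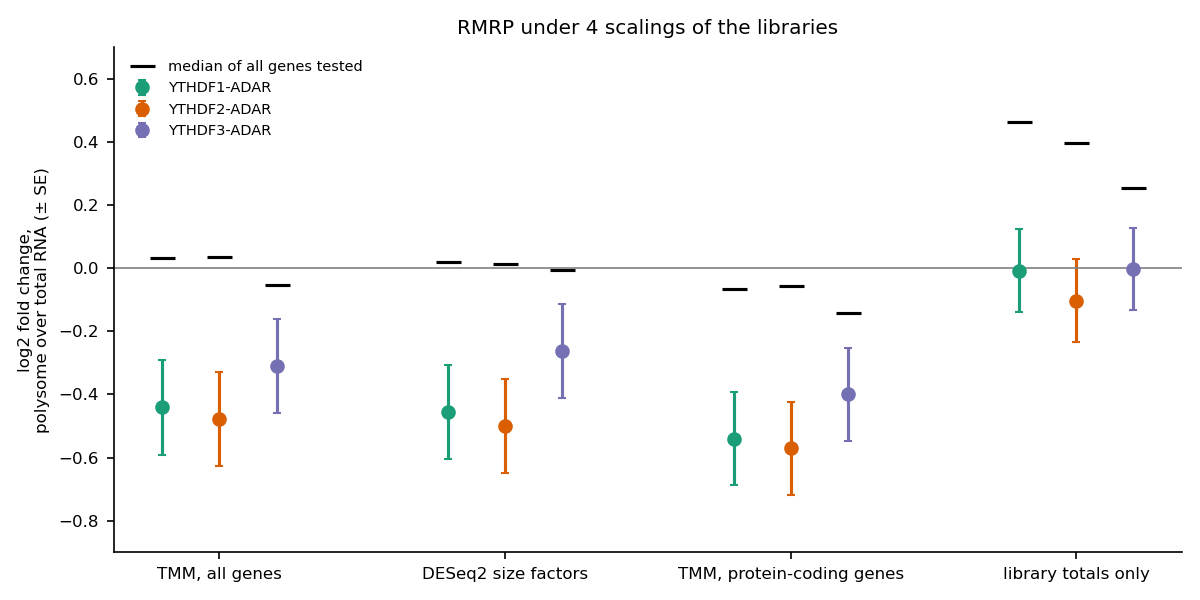
Log2 fold change of RMRP, polysome over total RNA, with its standard error, under 4 ways of scaling the libraries (coloured points, 1 per line), beside the median of all genes tested (black bars). The points lie between -0.57 and -0.26 under the first 3 scalings and between -0.10 and -0.00 with library totals only, where the medians are 0.46, 0.40 and 0.25.

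The count of RMRP divided by that of RPPH1 within a library needs no scaling between libraries. This ratio was 11.3, 11.6 and 12.3 on YTHDF1-ADAR polysomes, against 0.923, 0.824 and 0.817 in total RNA. It was 7.81, 12.8 and 12.3 on YTHDF2-ADAR polysomes, against 0.837, 0.756 and 0.974 in total RNA, and 10.1, 11.8 and 7.79 on YTHDF3-ADAR polysomes, against 0.801, 0.824 and 0.847 in total RNA. The 2 fractions were far apart in each line, with a mean ratio 13.7, 12.8 and 12 times as high on polysomes, although an exact two-sided permutation test of 3 against 3 libraries gave p = 0.1 in each, the smallest it allows. RMRP made up 90.0% ± 1.71 of the reads of the 7 RNAs on polysomes and 42.5% ± 1.65 in total RNA (SD, n = 9 each), and RPPH1 8.53% ± 1.57 on polysomes and 50.4% ± 1.88 in total RNA. Together the 7 RNAs took 0.222% ± 0.026 of all counts on polysomes and 0.482% ± 0.039 in total RNA.

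**Figure D4:**
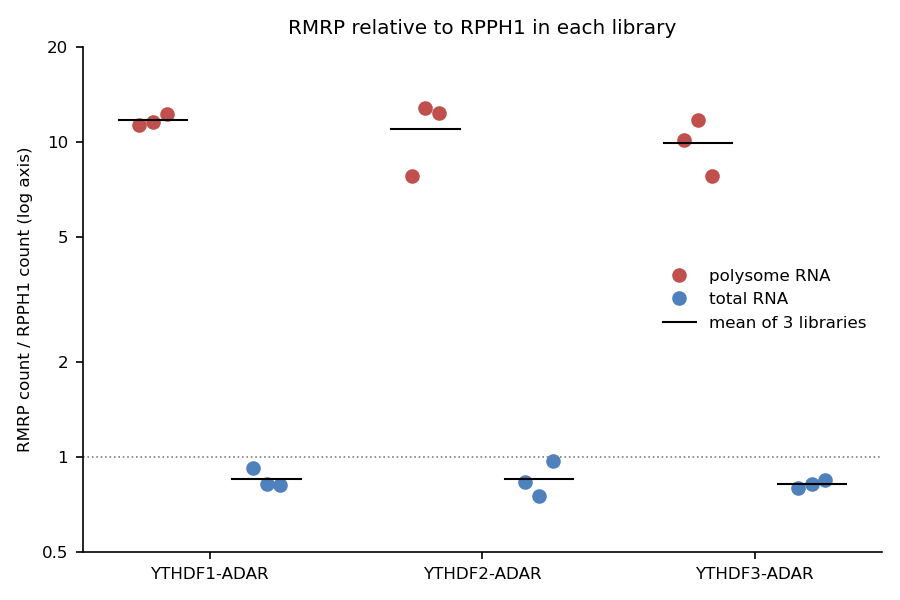
Count of RMRP divided by the count of RPPH1 in each library (log axis), with polysome RNA (red) left of total RNA (blue) in each line, black lines for means of 3 libraries and a dotted line at equal counts. All 9 polysome libraries lie between 7.79 and 12.8 and all 9 total RNA libraries between 0.756 and 0.974.

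TERC fell less than BCYRN1 and RPPH1 in every line, and by about as much as RNY3 in YTHDF3-ADAR cells (-2.84 against -2.81 on the log2 scale). It had 19.5, 17.95 and 26.4 CPM on YTHDF1-ADAR polysomes and 154, 150 and 143 CPM in total RNA. On YTHDF2-ADAR polysomes it had 22.5, 19.5 and 20.6 CPM, against 146, 110 and 129 CPM in total RNA, and on YTHDF3-ADAR polysomes 15.5, 29.1 and 25.5 CPM, against 132, 190 and 182 CPM in total RNA. No groups overlapped, and edgeR's log2 fold change was -2.81, -2.62 and -2.84 (SE 0.21 each), and the adjusted p-values were 4.09e-07, 9.98e-07 and 3.31e-07. Against RPPH1 in the same library, the count of TERC was 0.133 ± 0.024 on polysomes and 0.0538 ± 0.0091 in total RNA (SD, n = 9 each).

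BCYRN1 was the member with the lowest log2 fold change in YTHDF1-ADAR and YTHDF3-ADAR cells, and it ranked 8, 20 and 9 from the bottom among the 26804 genes in the 3 lines. Polysome libraries had 4.34, 4.35 and 5.43 CPM in YTHDF1-ADAR, 6.45, 5.71 and 8.27 in YTHDF2-ADAR and 4.98, 4.78 and 4.44 in YTHDF3-ADAR cells. The matching total RNA libraries had 268, 234 and 243, then 298, 212 and 273, then 214, 144 and 135 CPM. YTHDF3-ADAR total RNA replicate 1 stood above the others of its group here too.

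**Figure D5:**
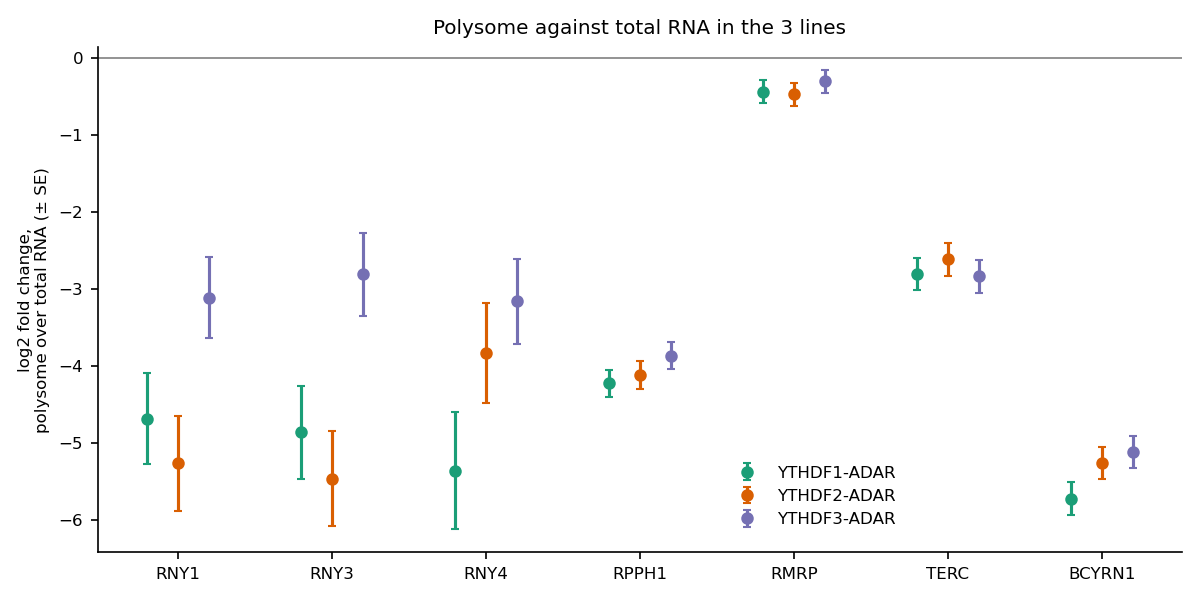
Log2 fold change of each RNA, polysome over total RNA, with its standard error, from 1 fit of all 18 libraries (green YTHDF1-ADAR, orange YTHDF2-ADAR, purple YTHDF3-ADAR). RMRP lies between -0.48 and -0.31, TERC between -2.84 and -2.62 and the other RNAs between -5.72 and -2.81.

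Because the RNAs differ in length, their levels were set side by side as CPM per kilobase. This does not correct for how well RNAs of each length entered the libraries, which was not tested. Among total RNA libraries the share of counts in rows of at least 100 and under 200 nt ran from 0.971% to 3.38%. The order is thus one of levels in these libraries, not of amounts in cells. On YTHDF1-ADAR polysomes the order was RMRP (7054 ± 1086), RPPH1 (476 ± 52.8), TERC (39.4 ± 8.36), BCYRN1 (23.5 ± 3.12), RNY3 (3.67 ± 1.14), RNY1 (1.90 ± 0.33) and RNY4 (0.211 ± 0.247), with no overlap between neighbours (SD, n = 3). In total RNA of that line it was RMRP (9577 ± 595), RPPH1 (8890 ± 213), BCYRN1 (1242 ± 89.6), TERC (275 ± 10.4), RNY3 (107 ± 33.1), RNY1 (49.3 ± 14.7) and RNY4 (10.1 ± 2.42), where only RMRP and RPPH1 overlapped. TERC and BCYRN1 thus changed places between the fractions. The order of means was the same in the other lines. There RMRP and RPPH1 again overlapped in total RNA, TERC and BCYRN1 overlapped on YTHDF2-ADAR polysomes, TERC and RNY3 in YTHDF2-ADAR total RNA, RNY3 and RNY1 in YTHDF3-ADAR total RNA, and neighbouring Y RNAs on YTHDF2-ADAR and YTHDF3-ADAR polysomes.

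Whether the polysome change differed between the lines was tested as a difference of log2 fold changes in the same fit. No member was called in any of the 3 pairs of lines, with a background of 0% of the 26804 genes in each. An unadjusted p under 0.05 was found for 801 genes (2.99%) in the contrast of YTHDF3-ADAR with YTHDF2-ADAR, 877 (3.27%) in that of YTHDF3-ADAR with YTHDF1-ADAR and 166 (0.619%) in that of YTHDF2-ADAR with YTHDF1-ADAR, and the Wald test of DESeq2 called 0 members. Members with such a p numbered 2, 3 and 0 in these contrasts. Beside RNY3, they were RNY1 in the first (2.15, edgeR unadjusted p 0.0155). In the second they were RNY4 (2.20, unadjusted p 0.0464) and BCYRN1 (0.60, 95% interval 0.07 to 1.14, unadjusted p 0.0293). For RNY3 the difference was 2.65 (95% interval 0.99 to 4.32, unadjusted p 0.00382) when YTHDF2-ADAR was subtracted from YTHDF3-ADAR and 2.05 (0.41 to 3.69, unadjusted p 0.0176) when YTHDF1-ADAR was, with an edgeR adjusted p of 1 for both. Without YTHDF3-ADAR polysome replicate 3 these RNY3 differences were 1.38 and 0.77, so they rest in good part on that library. Without YTHDF3-ADAR total RNA replicate 1 the RNY3 change in that line moved the other way, from -2.81 to -2.39. For RMRP the 3 differences lay between -0.04 and 0.17, with 95% intervals from -0.48 to 0.61 at the widest ends.

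In total RNA, BCYRN1 was lower in YTHDF3-ADAR than in both other lines. Its log2 fold change was -0.67 (SE 0.17, edgeR adjusted p 0.0125) against YTHDF2-ADAR and -0.59 (SE 0.17, adjusted p 0.0264) against YTHDF1-ADAR cells. It was the only one of 7 members called in either comparison, with 22.8% and 18.1% of all genes called either way. For YTHDF2-ADAR against YTHDF1-ADAR, 0 members were called by edgeR or by DESeq2, beside 1.83% of all genes, 2456 genes (9.16%) with an unadjusted p under 0.05 and 0 members among them. Without YTHDF3-ADAR total RNA replicate 1, where BCYRN1 was highest, the values were -0.94 (adjusted p 0.000308) and -0.87 (adjusted p 0.00068), and RNY3 was then called too against YTHDF2-ADAR (-1.51, adjusted p 0.0408). With library totals alone TERC was instead called higher against YTHDF2-ADAR (0.58, adjusted p 0.0365), and BCYRN1 lost both calls (-0.46, adjusted p 0.0552, and -0.35, adjusted p 0.146), as it did in fits of the compared groups only (adjusted p 0.0931 and 0.115) and in 3 of 6 fits that left out 1 library against YTHDF2-ADAR and 4 of 6 against YTHDF1-ADAR. Those were YTHDF3-ADAR replicates 2 and 3 in both comparisons (adjusted p 0.0723 and 0.0796, and 0.13 and 0.146), YTHDF2-ADAR replicate 1 (0.0526) and YTHDF1-ADAR replicates 1 and 3 (0.0845 and 0.0663).

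In polysome RNA, BCYRN1 was lower in YTHDF3-ADAR than in YTHDF2-ADAR cells (-0.52, SE 0.18, edgeR adjusted p 0.0473), where 25.1% of all genes were called. RNY4 was higher in YTHDF3-ADAR than in YTHDF1-ADAR cells (2.98, SE 0.88, adjusted p 0.0239), where 23.3% were called. Both calls were weak. Without YTHDF3-ADAR polysome replicate 3 the first had a log2 fold change of -0.48 and an adjusted p of 0.142 and the second a log2 fold change of 1.78 and an adjusted p of 0.206. With library totals alone BCYRN1 was not called against YTHDF2-ADAR (-0.39, adjusted p 0.126) and RNY1 was (1.91, adjusted p 0.0375). YTHDF2-ADAR against YTHDF1-ADAR polysomes gave 0 members by edgeR or by DESeq2, beside 2.35% of all genes, and 1 member, BCYRN1, with an unadjusted p under 0.05 (0.53, unadjusted p 0.0102) where 11.1% of genes had one. Apart from the call of TERC with library totals alone, RPPH1, RMRP and TERC passed no test between lines in either fraction under any setting run, and for these 3 RNAs every estimate scaled by TMM over all genes, with all 18 libraries and no block, lay between -0.22 and 0.39 on the log2 scale.

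Other short RNAs of nuclear and cytoplasmic particles were lower on polysomes as well. The list held 34 genes for the signal recognition particle, 7SK, vault, spliceosomal, U3, U7, U8 and Cajal body RNAs, of which 31 were tested. On polysomes 25, 25 and 24 of them were lower and 0, 0 and 1 higher in the 3 lines, with median log2 fold changes of -2.15, -2.10 and -1.56 beside 0.03, 0.03 and -0.05 for all genes, of which 9.26%, 6.71% and 8.01% were called higher. The most abundant were RN7SL2 (-4.37, -4.33 and -4.43) and RN7SL1 (-4.04, -3.97 and -4.06) of the signal recognition particle, RN7SK (-5.12, -5.07 and -4.75), which holds the elongation factor P-TEFb, and the U1 snRNA gene RNU1-1 (-2.52, -2.72 and -1.56). RMRP lay above 28, 27 and 27 of the 31, with 3, 4 and 4 higher. The median of the list lay between -2.48 and -1.26 under the alternatives run with all libraries. Fitted without the other lines, YTHDF3-ADAR libraries gave 7 of 30 lower, in the fit that called 0.879% of all genes lower.

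Sequences annotated as copies of the Y RNAs were mostly too low to test. Of 758 rows named Y_RNA, 217 had no read and 51 were tested, of which 15, 17 and 11 were lower on polysomes in the 3 lines and 1 was higher in each, where 11.9%, 9.04% and 12.1% of all genes were lower. With library totals alone 7, 12 and 11 were lower and 2, 3 and 2 higher. Of all genes, 5.7%, 5.09% and 6.22% were then lower and 40.6%, 33.9% and 25.3% higher. With each line fitted by itself 6 of 32, 16 of 34 and 0 of 30 Y_RNA rows were lower, beside 17.9%, 16.9% and 0.879% of all genes. Of 53 copies named after a single Y RNA, 14 had no read and 7 were tested, with 2, 2 and 1 lower and 0 higher. Their median was -0.18, -0.71 and -0.17 on the log2 scale and turned to 0.25 for YTHDF1-ADAR and 0.14 for YTHDF3-ADAR with library totals alone. In the fits of each line by itself 2 of 5, 2 of 3 and 0 of 2 named copies were lower. The most abundant of these, RNY3P1, had log2 fold changes of -4.35, -5.42 and -2.56, all called, and reads of RNY3 that match it equally well cannot be told apart from its own. RNY3P15, with a mean of 1.66 CPM over the 18 libraries beside 1.71 CPM for RNY3P1, was not called (0.35, -0.14 and 0.13). RNY1P13 was called lower in YTHDF1-ADAR cells (-2.61), also in the YTHDF2-ADAR line (-2.74), but not in YTHDF3-ADAR cells (-1.72, edgeR adjusted p 0.0913). The 3 named copies of RMRP, RPPH1 and BCYRN1 had no read in any of the 18 libraries and were not tested.

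The mRNAs of proteins that work with these RNAs had median changes between 0.04 and 0.39 on the log2 scale. Their counts of calls moved with the fit, as did those of all genes. Of all genes, 11.9%, 9.04% and 12.1% were lower and 9.26%, 6.71% and 8.01% higher on polysomes. These shares became 18%, 15% and 20.1% lower and 18.7%, 15.5% and 13.6% higher with the replicate number as a block, and 5.7%, 5.09% and 6.22% lower and 40.6%, 33.9% and 25.3% higher with library totals alone. Of 12 genes for RNase P and RNase MRP proteins, 5, 3 and 2 were higher on polysomes in the 3 lines and 0 were lower, with medians of 0.39, 0.38 and 0.28. With the replicate number as a block 11, 9 and 7 of the 12 were higher and 1, 0 and 0 lower, with library totals alone 11, 11 and 10 were higher and 0 lower, and with TMM factors from protein-coding genes 0 were called. Among the 4 most abundant, POP7 (0.51, edgeR adjusted p 0.0419) and NEPRO (0.33, adjusted p 0.0263) were higher in YTHDF1-ADAR cells, and RPP14 and RPP25 were not called in any line. Of 16 genes for Y RNA proteins and decay enzymes, 2, 0 and 1 were lower and 0, 0 and 2 higher, with medians of 0.08, 0.04 and 0.10 that turn to -0.02, -0.06 and 0.01 when scaled on protein-coding genes, 3, 3 and 3 were lower and 2, 0 and 3 higher with the block, and 0, 0 and 1 were lower and 11, 7 and 7 higher with library totals alone. The Y RNA binding proteins nucleolin (NCL, -0.55, adjusted p 0.0241, in YTHDF1-ADAR cells) and YBX1 (-0.70, adjusted p 0.000959, in YTHDF3-ADAR cells) were among the lower ones, while HNRNPK and PTBP1 were not called.

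Of 15 genes for telomerase and the processing of TERC, 1, 1 and 1 were lower and 1, 1 and 0 higher, with the block 4, 3 and 5 were higher, and with library totals alone 0, 0 and 1 were lower and 11, 10 and 11 higher. NHP2, a protein of H/ACA particles, was higher in the YTHDF1-ADAR line (0.51, edgeR adjusted p 0.0175) and in that of YTHDF2-ADAR (0.51, adjusted p 0.0211), while DKC1, RUVBL1 and RUVBL2 were not called. Of 10 genes for partners of BC200 RNA, 1, 0 and 2 were lower and 2, 1 and 3 higher, and with library totals alone 0, 0 and 1 were lower and 7, 6 and 7 higher. The poly(A)-binding protein gene PABPC1 was lower in YTHDF1-ADAR (-0.50, adjusted p 0.0459) and YTHDF3-ADAR cells (-0.77, adjusted p 0.00505), and the initiation factor gene EIF4B in YTHDF3-ADAR cells (-0.83, adjusted p 0.005), while EIF4A1 and HNRNPA2B1 were not called. Of 29 genes of the RNA polymerase III machinery, which transcribes most of these RNAs, 2, 2 and 2 were lower and 4, 2 and 4 higher, with 4, 2 and 4 lower and 12, 5 and 8 higher with the block, and 1, 1 and 2 lower and 20, 20 and 13 higher with library totals alone. GTF3C1, a subunit of TFIIIC, was lower in all 3 lines (-1.34, -0.92 and -0.99), GTF3C4 was not called, and MAF1, the repressor of the polymerase, was higher in YTHDF1-ADAR (0.40, adjusted p 0.00499) and YTHDF2-ADAR cells (0.47, adjusted p 0.0024).

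The genes most like each member were found by Pearson's r of log2 CPM over the 18 libraries, which share the large step between fractions, with genes under a mean log2 CPM of 2 left out. RPPH1 and BCYRN1 were most like 7SK RNA (rows 7SK and RN7SK, r = 0.998 and 0.993, followed by RN7SKP203 at 0.997 for RPPH1 and RN7SKP71 at 0.990 for BCYRN1). TERC was most like RN7SL4P, a long noncoding row without a symbol and RN7SL2 (r = 0.991 each). RNY1 and RNY3 were both most like the snoRNA SNORA73A (r = 0.978 and 0.975). For RNY1 it was followed by RNU1-27P and RNU1-28P (0.975 each), for RNY3 by SNORA71A (0.9705) and RN7SKP80 (0.9696). RNY4 was most like CACNG8 (r = 0.961), followed by rows without a symbol at 0.958 and 0.956. RMRP had no match as close, with SCARNA7 at 0.853, SNHG22 at 0.837 and POU3F3 at 0.829.

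Editing by the fusions could not be followed on these RNAs. The authors' deposited editing tables list 6858 genes for YTHDF1-ADAR, 4547 for YTHDF2-ADAR and 7042 for YTHDF3-ADAR, and 0 of the members are among them.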

How the data were processed

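The deposited count table gives raw reads for each gene in each library. The tools named in the submitters' processing notes are featureCounts 2.0.1, STAR 2.7.7 and DESeq2, with the build GRCh38 (hg38). The sources used here give neither the annotation release nor the strand setting. The kit was strand-specific and depleted ribosomal RNA, per the labels' protocols. The deposited comparison table gives the authors' signal (baseMean), log2 fold change and p-value for a comparison that is not named. The deposited editing tables give, per gene, the number of sites, the authors' score and a natural log change, and served only to look up the members. The deposited gene length, an annotation value, gave CPM per kilobase.

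Counts were tested in R 4.3.3 with edgeR 4.0.16: filterByExpr (minimum count 10), TMM factors, 1 robust quasi-likelihood fit of 6 group means, contrasts of polysome against total RNA, of its difference between lines and between lines within a fraction, and Benjamini-Hochberg adjustment over 26804 genes. SE is the log2 fold change over the root of F, and 1 row that names no human gene was left out. Symbols came from the deposited comparison table. The 93 IDs with no row there were used by ID only, as were other rows without a symbol. Libraries of a group differed by more than sampling noise (chi-square per degree of freedom at least 6.98). The fit was tested on simulated data.

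Within a line, libraries of the 2 fractions with the same number correlated after removal of group means (r 0.177 to 0.703 in 9 pairs), so the replicate number was tried as a block, though the labels state no shared culture and some libraries were closer to another number. Across lines r ran from -0.519 to 0.852 and the number was not taken as a pair. Alternatives were other scalings, no filter, DESeq2 1.42.0, fits of the compared groups only, the block and leaving out each library, with 1 added after the data were seen. Members and lists were chosen with earlier results of these data known. Named genes are the members, the 4 most abundant tested genes of each list (1 of them is not reported here), the 3 most abundant copies and the 3 genes most like each member. Reads carried no molecular identifiers, so errors cover these libraries only.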

Additional observations from a re-analysis of the deposited data

How the results depend on the processing

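The losses of RNY1, RNY3, RNY4, RPPH1, TERC and BCYRN1 on polysomes were called under every alternative run in YTHDF1-ADAR and YTHDF2-ADAR cells. In YTHDF3-ADAR cells the count of called members was 3 when only the compared groups were fitted, since the Y RNAs were lost in a fit that called 0.879% of all genes lower, against 12.1%, and 6 without the 2 YTHDF3-ADAR libraries that stood apart. The replicate block changed no call of a member within a line. Calls between lines were less stable. For total RNA of YTHDF3-ADAR against YTHDF1-ADAR the 1 call became 0 with no normalization factors and with only the compared groups fitted, 2 without both libraries that stood apart, and 0 to 1 on leaving out single libraries. Against YTHDF2-ADAR the call passed to TERC with no normalization factors, and the count became 0 with only the compared groups fitted, 2 without both libraries, where RNY3 joined in both comparisons, and 0 to 2 on leaving out single libraries. For polysome RNA of YTHDF3-ADAR against YTHDF1-ADAR the 1 call became 0 with only the compared groups fitted and without both libraries, and 0 to 3 on leaving out single libraries. Against YTHDF2-ADAR the call passed to RNY1 with no normalization factors, and the count became 0 with DESeq2 size factors, with no filter on low counts, with only the compared groups fitted and without both libraries, 2 with the DESeq2 Wald test and with the replicate block, where RNY1 joined, and 0 to 3 on leaving out single libraries. For YTHDF2-ADAR against YTHDF1-ADAR polysomes, 0 became 1 with only the compared groups fitted. Where leaving out a library made the calls 3, RNY1 and RNY3 joined after YTHDF3-ADAR polysome replicate 1 was dropped. The causes were not tested. No member's polysome change reversed under the alternatives run, but the list medians of the named Y RNA copies (0.25 for YTHDF1-ADAR and 0.14 for YTHDF3-ADAR with no normalization factors) and of the Y RNA proteins (-0.02 and -0.06 in YTHDF1-ADAR and YTHDF2-ADAR cells with protein-coding TMM, -0.01 in YTHDF2-ADAR cells fitted alone) changed sign. RNY4 and the row spanning RNY5 had few reads on polysomes, which limits their fold changes more than those of the other members.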
